A study of Homo sapiens with 3 samples.

Results

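The hypoxia response and glycolysis genes were followed across an array study of MMSET knockdown in a myeloma cell line. The group was a list of 40 genes, made of 8 genes of oxygen sensing, 13 further targets of the hypoxia response and 19 genes of glucose transport and glycolysis. Where a gene had several probe sets the brightest, by mean signal over the arrays, stood for it, and the others served as a check. Of the 40 genes, 39 had a probe set carrying their symbol alone and 37 were tested, meaning that the signal lay above the median of the array on at least 1 array. CA9 was not analysed here. EGLN2 and EGLN3, a pair of oxygen-sensing hydroxylases, were too dim to test. In all, 19775 genes had a probe set and 13296 were tested.

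The cells were KMS11, an established human multiple myeloma line with the t(4;14) translocation, which drives expression of the histone methyltransferase gene MMSET (current symbol NSD2). All cells were infected with lentivirus in the presence of polybrene, given fresh medium after a day and collected at 48 h, each virus carrying a short hairpin RNA. The 3 groups have 1 array apiece. The control cells received shLuc, a name conventionally given to a hairpin against luciferase, and the other groups received shMMSET#2 or shMMSET#4. The labels name no change of oxygen in any group, and 1 cell line stands for the disease. The series title frames the question as which transcription factors needed by such cells depend on MMSET. With no replicates, no test between groups was run, and higher and lower describe these arrays. Both comparisons with the control use the same shLuc array.

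Cells sense oxygen through hydroxylases of the EGLN family, which mark the alpha subunits of the hypoxia-inducible factor, HIF, for recognition by VHL and destruction. When oxygen is scarce the alpha subunits persist, pair with ARNT and bind short DNA elements near genes for glucose uptake, glycolysis, vessel growth and mitochondrial turnover. Regulation of the alpha subunits is largely at the protein level, which these arrays do not measure. Plasma cells and myeloma cells live in marrow niches low in oxygen, and many tumour lines use glycolysis heavily in culture.

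The deposited values are MAS5 signals on a linear scale, and ratios are given as log2 differences or folds after signals below 41.2 were raised to that floor. A gene was called when it was at least 1.5-fold from shLuc. Spread could be judged only by how far the MMSET hairpin arrays lay apart, and this includes whatever the hairpins do differently. Within 10 classes of mean signal, 95% of tested genes differed between these arrays by less than 1.85-fold (the brightest class) to 2.95-fold (a dim class), so a fold of 1.5 is inside the spread. The targeted gene NSD2 gave 10300 with shLuc, 7032 with shMMSET#2 and 7476 with shMMSET#4 on its brightest probe set, and over its 6 probe sets the median log2 ratio to shLuc was -1.33 with shMMSET#2 and -0.48 with shMMSET#4. All 9 plasma cell markers on the list were above the array median on at least 1 array, including JCHAIN and TNFRSF17. So were CD3D and CD3E of the T cell markers and CSF1R of the myeloid markers, so this measure alone does not separate the lists. The T cell and myeloid markers had signals no higher than 105 on any array. CD38, the dimmest of the 9, gave 94.4 with shLuc, where CD3E gave 105. The plasma cell markers summed to 113375 with shLuc, to 71755 with shMMSET#2 and to 100625 with shMMSET#4, and JCHAIN alone gave 55012 of the shLuc sum. With shMMSET#2, 5 of the 9 were at least 1.5-fold lower (22.5% of all tested genes were). SLAMF7 alone was lower with both hairpins (11.1%, near the 11.9% of all tested genes). With shMMSET#4, 2 of the 9 were higher, MZB1 by 3.53-fold and CD38 by 1.60-fold (17.3% of all tested genes were). The part of this in the results with shMMSET#2 was not tested. For ACTB the 3' control exceeded the 5' control by 1.70 on the log2 scale in shLuc cells and by 1.14 with each MMSET hairpin, while for GAPDH the difference was at most 0.10 on every array. The part of the ACTB difference in the results was not tested. Scaling every array to the same median signal would raise the median log2 ratio over the whole table, from -0.04 to 0.26 for shMMSET#2 and from -0.02 to 0.34 for shMMSET#4. Under that scaling ANKRD37, MXI1, SLC2A1 and ALDOC lost their calls as lower with both hairpins, and EPAS1, BNIP3L and PFKL became higher with both. The sign turned for HIF1A with shMMSET#2, for VHL, VEGFA, BNIP3, PFKFB3, HK1, ENO1 and LDHA with shMMSET#4, and for PFKM, PGK1 and LDHB with both, none of which were called with the hairpin concerned.

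Over the 37 tested members, 8 were at least 1.5-fold lower than shLuc with both hairpins (21.6%, where 11.9% of all tested genes were). These were PFKFB4, PDK1, ADM, NDRG1, ANKRD37, MXI1, SLC2A1 and ALDOC. EGLN1 and ENO2 were higher with both, where 8.6% of all tested genes were, and the other 27 were neither. Less RNA per cell and fewer cells of a kind cannot be told apart in such bulk RNA. The counts per hairpin include the genes called with both. With shMMSET#2, 16 were lower (22.5% of all tested genes) and 5 higher (16.2%), and with shMMSET#4, 8 were lower (20.6%) and 3 higher (17.3%). The share lower with shMMSET#4 is thus near the background. At 2-fold, 13 were lower and 2 higher with shMMSET#2 (10.7% and 5.69% of all tested genes), 3 lower and 3 higher with shMMSET#4 (8.95% and 6.74%), and 3 lower and 2 higher with both (4.35% and 2.83%).

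HIF binds the core letters ACGTG or GCGTG, known as the hypoxia response element. RefSeq promoter sequence (GRCh38.p14) was matched for 34 of the 39 genes, and the 250 bases upstream of the start farthest 5' were searched on both strands for either motif. A CACGTG holds ACGTG on both strands. Either motif was present upstream of 20 of the 34 genes (58.8%) and upstream of 43.1% of the 27305 genes in the table. ACGTG was present upstream of 13 members (38.2%, against 18.6% of all genes) and GCGTG upstream of 11 (32.4%, against 31.9%). A match describes letters and does not show binding, and elements elsewhere in a gene were not searched. VHL, VEGFA, BNIP3L, NDRG1 and SLC2A3 were not matched. The upstream sequences of 5 genes that hold a motif are shown as examples of each direction, with the motif letters in capitals: ADM and ALDOC were lower with both hairpins, EGLN1 and ENO2 were higher with both, and HK2 differed in direction between the hairpins. The windows are chr11:10304823-10305072 on the plus strand for ADM, chr17:28576896-28577145 on the minus strand for ALDOC, chr1:231422288-231422537 on the minus strand for EGLN1, chr12:6914330-6914579 on the plus strand for ENO2 and chr2:74833877-74834126 on the plus strand for HK2. By the RefSeq gene table the HK2 window overlaps the noncoding gene HK2-DT and the start of the ADM window overlaps the gene body of SBF2.
ADM: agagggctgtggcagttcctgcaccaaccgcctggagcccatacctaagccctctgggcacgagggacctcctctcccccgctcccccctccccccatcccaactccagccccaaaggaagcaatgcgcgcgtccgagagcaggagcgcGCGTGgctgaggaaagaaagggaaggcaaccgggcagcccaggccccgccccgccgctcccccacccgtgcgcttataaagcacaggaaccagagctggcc
ALDOC: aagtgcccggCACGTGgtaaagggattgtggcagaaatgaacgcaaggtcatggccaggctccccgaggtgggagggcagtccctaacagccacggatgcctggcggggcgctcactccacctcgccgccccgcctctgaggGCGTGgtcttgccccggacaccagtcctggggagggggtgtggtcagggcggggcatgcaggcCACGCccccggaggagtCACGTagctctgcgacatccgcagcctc
EGLN1: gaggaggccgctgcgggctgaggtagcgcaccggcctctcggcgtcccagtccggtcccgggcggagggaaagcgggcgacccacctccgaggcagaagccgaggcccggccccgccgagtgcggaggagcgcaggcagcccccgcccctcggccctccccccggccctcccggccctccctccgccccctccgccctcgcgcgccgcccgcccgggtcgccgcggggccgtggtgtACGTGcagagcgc
ENO2: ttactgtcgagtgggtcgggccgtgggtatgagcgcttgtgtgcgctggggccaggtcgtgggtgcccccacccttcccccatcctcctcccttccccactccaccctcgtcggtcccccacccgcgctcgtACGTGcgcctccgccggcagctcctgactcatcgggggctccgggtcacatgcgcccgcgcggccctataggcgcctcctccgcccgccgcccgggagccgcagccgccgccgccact
HK2: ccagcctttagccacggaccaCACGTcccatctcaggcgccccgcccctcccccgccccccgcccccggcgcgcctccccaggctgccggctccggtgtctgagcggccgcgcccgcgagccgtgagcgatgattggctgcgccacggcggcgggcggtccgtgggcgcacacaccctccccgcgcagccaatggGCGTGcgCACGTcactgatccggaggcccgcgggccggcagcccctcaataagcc

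These windows hold 1 to 5 motif matches each, both in genes that were lower and in genes that were higher with the MMSET hairpins. Of the 7 matched genes lower with both hairpins, 4 held either motif (57.1%), and PDK1, MXI1 and SLC2A1 did not hold these letters in the window.

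Among the genes of oxygen sensing, EGLN1 stood out as higher with both hairpins, and HIF1A mRNA differed little. HIF1A, the main oxygen-labile subunit, gave 9100 with shLuc, 7737 with shMMSET#2 and 9840 with shMMSET#4, within 1.18-fold of the control. EPAS1, which encodes the second alpha subunit, gave 358, 516 and 472, 1.44-fold and 1.32-fold higher with shMMSET#2 and shMMSET#4, short of the call. EGLN1, the principal hydroxylase that marks HIF for destruction, gave 1171 with shLuc, 3047 with shMMSET#2 and 3211 with shMMSET#4. It was 2.60-fold and 2.74-fold higher, beyond the 1.99-fold within which 95% of genes of like signal lay between the hairpin arrays. Its other probe sets above the median were higher by less, with log2 ratios of 0.16 and 0.35 with shMMSET#2 and of 0.73 and 0.44 with shMMSET#4. The mean over all its probe sets no longer passed 1.5-fold with shMMSET#2 (log2 ratio 0.47). That mean counts as unchanged a further probe set that was under the floor on every array, with signals of at most 27.1.

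HIF1AN, an asparaginyl hydroxylase that restrains HIF activity, gave 603, 922 and 683, higher by 1.53-fold and 1.13-fold. VHL, the recognition subunit of the ligase that removes HIF, gave 431, 480 and 389, within 1.11-fold of the control with both hairpins. ARNT, the stable partner subunit, gave 1172, 1387 and 875 on its brightest probe set. Its 6 probe sets above the median ran on the log2 scale from -1.61 to 0.74 for shMMSET#2 and from -1.83 to 0.30 for shMMSET#4, so no direction can be given for ARNT. EGLN2 and EGLN3 had signals of at most 32.7 on every array, under the floor. Of the 6 tested genes of this role, EGLN1 alone was called with both hairpins and the other 5 were not.

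**Figure D1:**
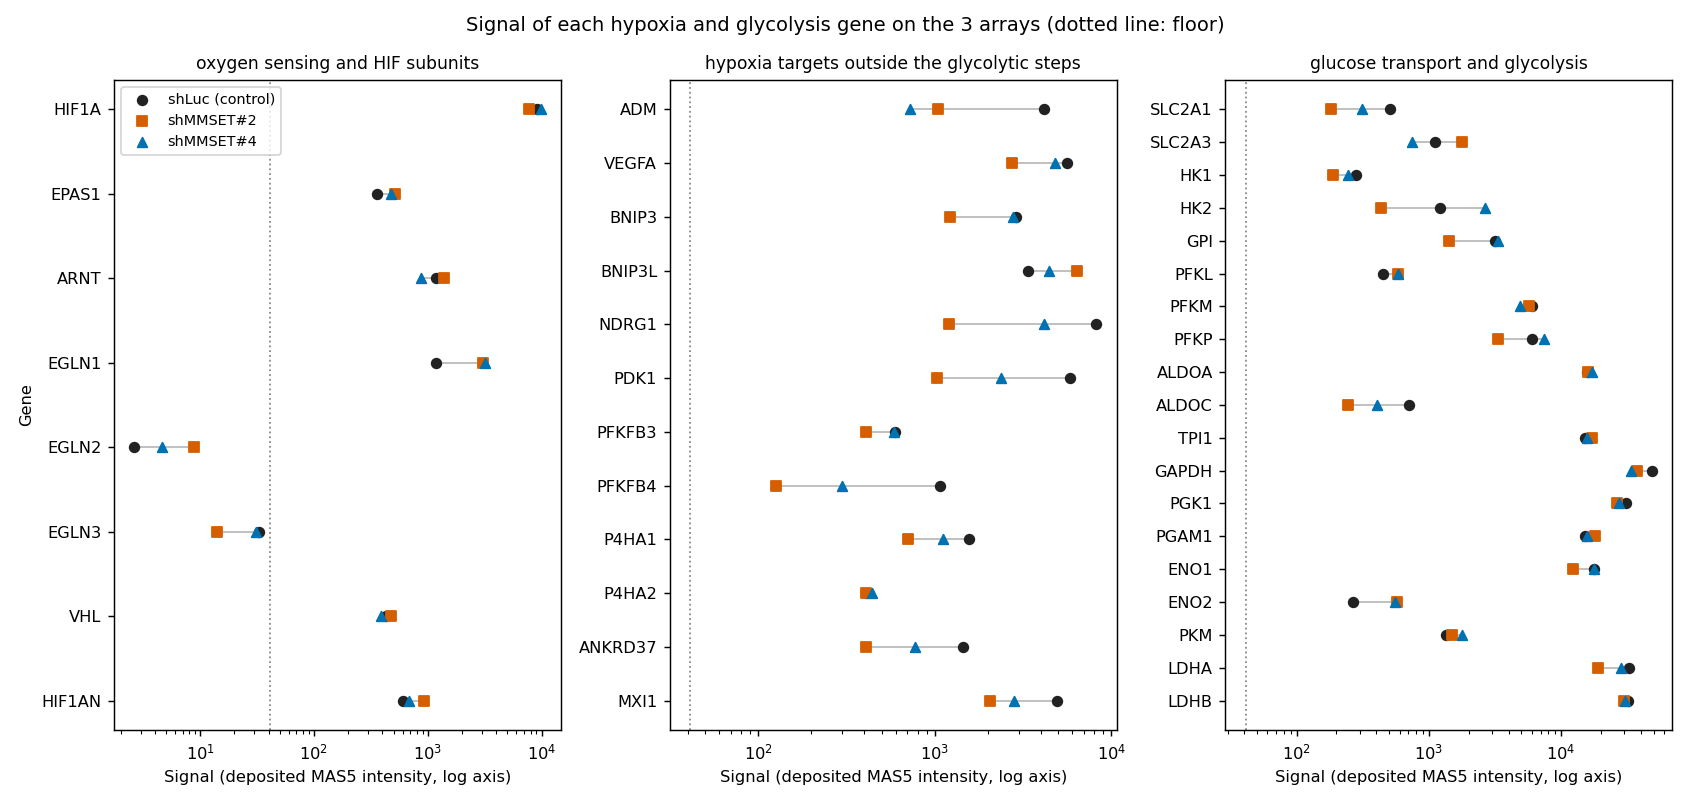
Signal of each gene on each array, on a log axis in units of deposited MAS5 intensity, with 1 point per array and a dotted line at the floor of 41.2. In the middle panel shLuc is the highest of the 3 arrays for 10 of 12 genes, for example PFKFB4 at 1071 against 126 and 297.

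The other hypoxia targets were the part of the group with the lowest levels relative to the control. Of 12 tested, 9 were called lower with shMMSET#2 and 6 with shMMSET#4 (22.5% and 20.6% of all tested genes). These 6 were lower with both hairpins, none was higher with both (11.9% and 8.6% of all tested genes) and 6 were neither. The median log2 ratio was -1.25 with shMMSET#2 and -0.65 with shMMSET#4, against -0.04 and -0.02 over all tested genes. At 2-fold, 9 were lower with shMMSET#2 and 3 with both hairpins (10.7% and 4.35% of all tested genes).

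PFKFB4 and PDK1 were the lowest 2 of these targets after ADM by the smaller of their folds. PFKFB4, a bifunctional enzyme that sets the level of a strong activator of phosphofructokinase, gave 1071 with shLuc, 126 with shMMSET#2 and 297 with shMMSET#4. It was 8.48-fold and 3.61-fold lower. Its paralog PFKFB3 gave 597, 409 and 591, 1.46-fold lower with shMMSET#2 and within 1.01-fold of the control with shMMSET#4. PDK1, the kinase that switches off pyruvate dehydrogenase, gave 5857, 1037 and 2373, 5.65-fold and 2.47-fold lower. Its other probe sets pointed the same way, with log2 ratios of -1.67 and -1.82 with shMMSET#2 and of -0.58 and -1.62 with shMMSET#4.

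ADM, the precursor of the vasodilator peptide adrenomedullin, gave 4165 with shLuc, 1039 with shMMSET#2 and 729 with shMMSET#4. It was 4.01-fold and 5.71-fold lower, and it was the only one of the 6 targets lower with both hairpins that was lower with shMMSET#4 than with shMMSET#2. NDRG1, a stress-responsive gene strongly induced by hypoxia, gave 8241, 1204 and 4133, 6.85-fold and 1.99-fold lower. ANKRD37, an ankyrin repeat gene of the hypoxia response, gave 1447, 407 and 773, 3.56-fold and 1.87-fold lower. MXI1, which competes with MYC for their partner MAX, gave 4928, 2063 and 2796, 2.39-fold and 1.76-fold lower. All 6 genes lay beyond the spread of their signal class with shMMSET#2, and 4 of them (ADM, NDRG1, PDK1 and PFKFB4) did with shMMSET#4, NDRG1 by a margin that vanishes on rounding (1.99-fold for each). With arrays scaled to the same median signal, the same 4 remained at least 1.5-fold lower with both hairpins, while ANKRD37 and MXI1 were no longer called.

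Another 3 targets were called lower with shMMSET#2 and not with shMMSET#4. VEGFA, the vascular endothelial growth factor, gave 5599, 2752 and 4783, 2.03-fold and 1.17-fold lower. All 4 of its probe sets were close together with shMMSET#2, with log2 ratios from -1.04 to -0.94, whereas with shMMSET#4 they ran from -0.69 to 0.89. BNIP3, a receptor for the removal of mitochondria, gave 2899, 1218 and 2788, 2.38-fold and 1.04-fold lower. P4HA1, a subunit of the collagen prolyl hydroxylase, gave 1565, 710 and 1116, 2.20-fold and 1.40-fold lower.

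Paralogs of these genes did not share their levels. BNIP3L, the paralog of BNIP3, gave 3386, 6368 and 4429, 1.88-fold and 1.31-fold higher, though a second probe set was at 0.30 with shMMSET#2 and -0.14 with shMMSET#4 on the log2 scale. P4HA2 gave 409 with shLuc, 409 with shMMSET#2 and 442 with shMMSET#4, within 1.08-fold of the control.

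**Figure D2:**
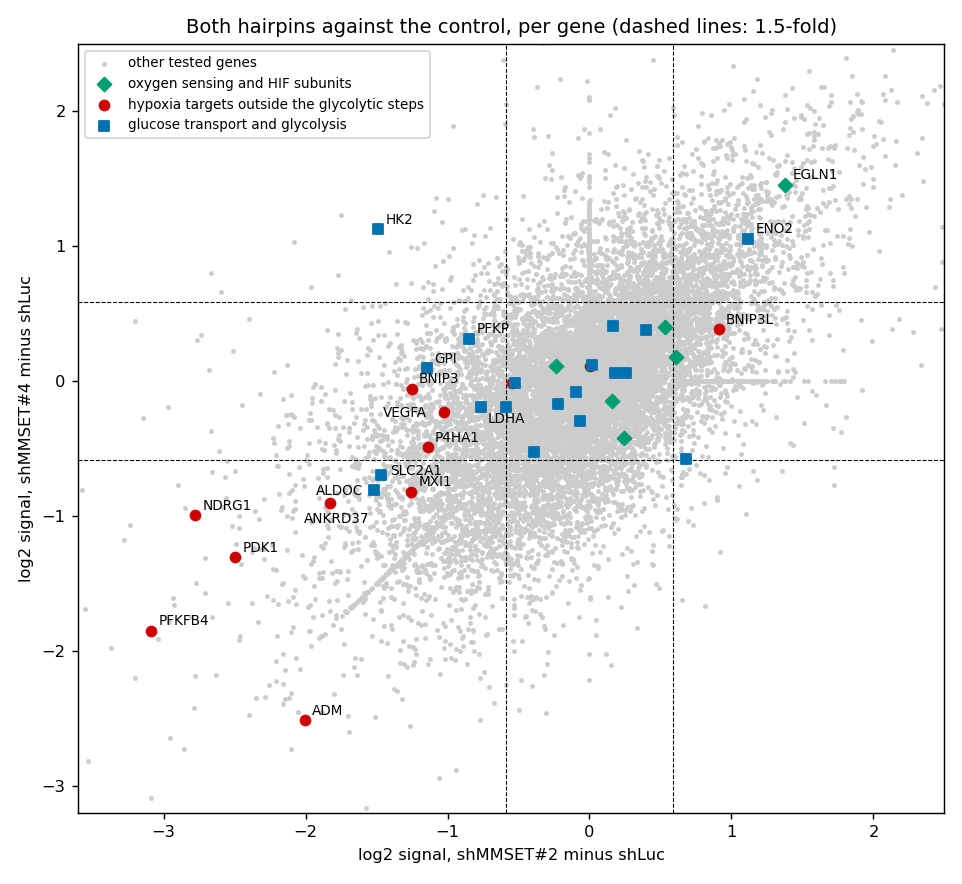
Log2 ratio to shLuc with shMMSET#2 (horizontal) and with shMMSET#4 (vertical) for the 37 tested members, coloured by role, over all other tested genes in grey, 48 of which lie outside the axes. Both axes share the shLuc array, dashed lines mark 1.5-fold, and 8 members lie in the lower left field, from PFKFB4 and ADM to SLC2A1, against 2 in the upper right, EGLN1 and ENO2.

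The genes of glucose transport and glycolysis were mixed. Of 19 tested, 7 were called lower and 2 higher with shMMSET#2 (22.5% and 16.2% of all tested genes), and 2 were lower and 2 higher with shMMSET#4 (20.6% and 17.3%). With both hairpins 2 were lower (SLC2A1 and ALDOC), 1 was higher (ENO2) and 16 were neither, so that the share lower with both (10.5%) was near the 11.9% of all tested genes. The SLC2A1 and ALDOC folds with shMMSET#4 lie inside the 2.36-fold spread of their signal class, and neither gene was called with both under scaling to the same median signal. The median log2 ratio was -0.22 with shMMSET#2 and -0.01 with shMMSET#4, and both turned positive, to 0.10 and 0.37, under scaling to the same median signal and to 0.08 and 0.08 under quantile normalization.

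At glucose entry the transporters differed. SLC2A1, the widely expressed transporter, gave 505 with shLuc, 182 with shMMSET#2 and 312 with shMMSET#4, 2.77-fold and 1.62-fold lower. SLC2A3, a transporter of high affinity, gave 1104, 1765 and 741, so that it was 1.60-fold above the control with shMMSET#2 and 1.49-fold below it with shMMSET#4. Its dimmer probe sets were higher with both hairpins, with log2 ratios of 0.28 and 0.59 with shMMSET#4, so its direction with that hairpin is unsettled.

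HK2, the inducible hexokinase that traps glucose in the cell, was the member with the widest gap between the hairpins. It gave 1223 with shLuc, 436 with shMMSET#2 and 2671 with shMMSET#4, 2.80-fold lower and 2.18-fold higher. The shMMSET#4 array was 6.12-fold above the shMMSET#2 array. Its dimmer probe sets were higher with shMMSET#4 too, with log2 ratios of 0.78 and at least 1.70. With shMMSET#2 they were at -0.23 and 0.00. The 0.00 is set by the floor, as that probe set was under it with shLuc (23.4) and with shMMSET#2 (2.78). With this probe set counted as unchanged, the mean over the HK2 probe sets with shMMSET#2 was -0.57, short of the call. HK1, the constitutive hexokinase, gave 281, 187 and 246, with log2 ratios of -0.59 and -0.19.

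Further along, GPI, which isomerises glucose phosphate, gave 3136 with shLuc, 1421 with shMMSET#2 and 3352 with shMMSET#4, 2.21-fold lower and 1.07-fold higher. PFKP, the platelet-type phosphofructokinase, gave 5993, 3331 and 7451, 1.80-fold lower and 1.24-fold higher, inside the spread of its signal class. A dim PFKP probe set was lower with both hairpins, at -0.64 and -0.81 on the log2 scale. The muscle-type PFKM (6021, 5757 and 4900) and the liver-type PFKL (447, 588 and 580) were within 1.32-fold of the control.

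Steps with more than 1 enzyme gene showed unlike ratios for the genes of a step. ALDOC, an aldolase best known from brain, gave 705 with shLuc, 246 with shMMSET#2 and 404 with shMMSET#4, 2.87-fold and 1.75-fold lower, while ALDOA, the ubiquitous aldolase, gave 15677, 15857 and 17032 and was within 1.09-fold. ENO2, the neuronal enolase, gave 266, 576 and 553, 2.17-fold and 2.08-fold higher, while ENO1 gave 17703, 12289 and 17579, 1.44-fold lower with shMMSET#2 and within 1.01-fold with shMMSET#4. The ENO2 folds are inside the 2.36-fold spread of its signal class. LDHA, the lactate dehydrogenase subunit that favours lactate production, gave 32492, 19087 and 28435, 1.70-fold and 1.14-fold lower, and LDHB gave 31829, 29772 and 30157, within 1.07-fold. The LDHA fold is also inside the spread.

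The remaining enzymes were no farther from the control than the 1.44-fold of GAPDH on their brightest probe sets. TPI1 gave 15115, 17097 and 15741, PGAM1 gave 15044, 18005 and 15700, PKM, the pyruvate kinase, gave 1343, 1504 and 1784, and PGK1 gave 30882, 26544 and 27443. The sign of PGK1 turned with both hairpins under quantile normalization too. A second PKM probe set was lower, at -0.58 and -0.47 on the log2 scale. GAPDH, often used as a reference gene, gave 48762 with shLuc, 37235 with shMMSET#2 and 33820 with shMMSET#4, 1.31-fold and 1.44-fold lower, and its 3 control probe sets gave log2 ratios of -0.47 to -0.41 with shMMSET#2 and of -0.26 to -0.22 with shMMSET#4. With shMMSET#2 the GAPDH ratio turned to 0.16 under quantile normalization.

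**Figure D3:**
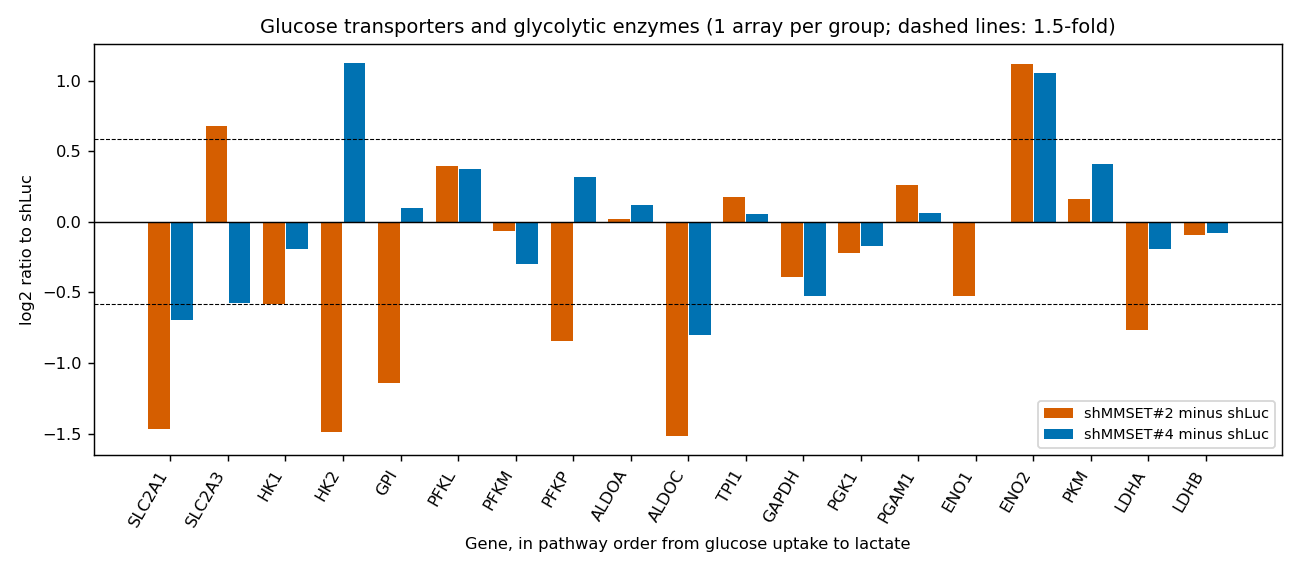
Log2 ratio to shLuc of each transporter and enzyme in pathway order, as 1 bar per hairpin from 1 array each, with dashed lines at 1.5-fold. HK2 points down with shMMSET#2 (-1.49) and up with shMMSET#4 (1.13), ALDOC is down and ENO2 up with both, and ALDOA, TPI1, PGAM1 and LDHB lie near 0.

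The hairpins were also set against each other, a comparison that leaves out the shLuc array. In it 12 of the 37 tested members lay 1.5-fold or more higher with shMMSET#4 than with shMMSET#2 (16.9% of all tested genes) and 2 were lower (13.6%). At 2-fold these counts were 7 (6.6%) and 1 (3.72%). The 12 held 7 of the 12 further hypoxia targets, with a median log2 difference of 0.72 over the 12 against 0.00 over all tested genes. The largest of these were NDRG1 (3.43-fold), PFKFB4 (2.35-fold), BNIP3 and PDK1 (each 2.29-fold). Glycolysis contributed HK2 (6.12-fold), GPI (2.36-fold), PFKP (2.24-fold), SLC2A1 (1.71-fold) and ALDOC (1.64-fold). The 2 members lower with shMMSET#4 were SLC2A3 (2.38-fold) and ARNT (1.59-fold), whose probe sets disagreed. IRF4, a plasma cell marker, was 2.19-fold higher with shMMSET#4 than with shMMSET#2 and NSD2 was higher on all 6 probe sets, and their part in the difference was not tested.

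Of the 37 tested members, 19 had more than 1 probe set above the median. In 4 of them another probe set was past 1.5-fold on the other side of the control from the brightest one with at least 1 hairpin. These were ARNT, VEGFA, SLC2A3 and PFKP. The genes with the largest folds included NDRG1, ADM and MXI1, which rested on a single probe set, and PFKFB4, ANKRD37, P4HA1 and SLC2A1, whose other probe sets were under the median or near the floor.

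**Figure D4:**
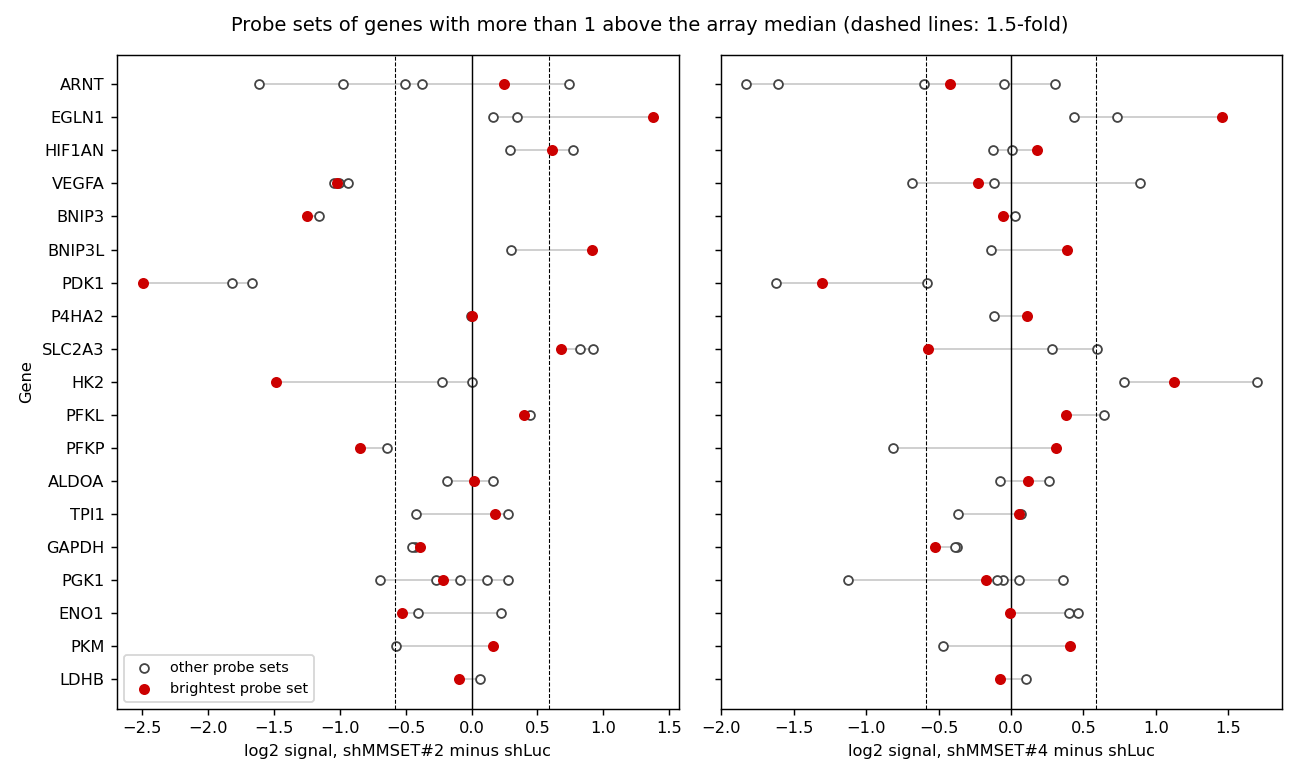
Log2 ratio to shLuc of every probe set above the array median, for the 19 members with more than 1, with the brightest probe set filled and dashed lines at 1.5-fold. PDK1, VEGFA and BNIP3 have probe sets close together or all below the dashed line with shMMSET#2, while those of ARNT run from -1.61 to 0.74.

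Other genes of the pathway, from lists outside the group, were counted the same way. Of 31 tested further hypoxia targets, 9 passed 1.5-fold downward with both hairpins (11.9% of all tested genes did) and 2 upward with both (8.6%). The other 20 did not pass with both, though some passed with 1 hairpin, and the list had median log2 ratios of -0.56 and -0.50. VLDLR, a lipoprotein receptor, gave 229, 46.8 and 91.9, 4.90-fold and 2.49-fold lower. ANGPTL4, a secreted inhibitor of lipoprotein lipase, gave 107, 12.2 and 17.5, and with both hairpins under the floor it was at least 2.59-fold lower with each. PPFIA4 was likewise at least 2.49-fold lower with each. ANGPTL4 and PPFIA4, both among the 9, were above the array median with shLuc only. They were thus tested only through the array where they are high, and their calls add no support to the count. The 2 higher genes were BHLHE40, a repressor that hypoxia induces (2.09-fold and 2.12-fold), and the receptor gene MET (log2 ratios of 0.59 and 1.02).

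Of 13 tested partners and regulators of HIF, such as the ligase subunits, 1 was higher with both hairpins (HSP90AB1, a chaperone, 1.71-fold and 1.58-fold; 8.6% of all tested genes were), none was lower and 12 were neither. Of 24 tested further genes of glycolysis and pyruvate handling, 3 were higher with both (8.6% of all tested genes were). None was lower with both (11.9% of all tested genes) and 21 were neither. PDHB, a catalytic subunit of the pyruvate dehydrogenase complex on which PDK1 acts, gave 3272, 9355 and 7651, 2.86-fold and 2.34-fold higher. PDHX, a structural subunit of that complex, was 1.83-fold and 1.64-fold higher, and the transporter gene SLC2A6 was 3.09-fold and 1.88-fold higher.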

How the data were processed

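Biotin-labelled RNA, amplified from the total RNA of 3 KMS11 samples, was hybridised to Affymetrix arrays. The authors deposited linear signal intensities per probe set, made with MAS5 per the submitters' processing notes. The version and settings of MAS5, and those of the GeneSpring software named in the design text, are not given in the sources used here. Each array had the same 2% trimmed mean of deposited intensities, 500.1, so no rescaling was done. The identifiers and the 54675 probe sets are those of the HG-U133 Plus 2.0 design, although the design text names another array.

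Gene symbols came from the platform annotation, with 41037 symbols updated by Entrez identifier against RefSeq (GRCh38.p14). Of those that are not controls, 41091 had 1 symbol, 1801 had several and were not named, and 11721 had none here. The 62 control probe sets were left out. After raising signals below the 40th percentile of all pooled intensities (41.2) to that value, log2 was taken. This floor held 36.2%, 41.2% and 42.6% of probe sets with shLuc, shMMSET#2 and shMMSET#4. Where 1 array of a ratio was at this floor, the fold is a lower limit. The small number of arrays limits how precise any ratio is.

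The members, lists and rules were chosen with earlier results of these data known. Named were all members, NSD2 and, per further list, up to 3 genes lower and 3 higher with both hairpins. IRF4, JCHAIN, TNFRSF17, MZB1, CD38, CD3E, CSF1R, CD22, PAX5, EPCAM, KRT8, KRT18 and ACTB were named in addition after their values were seen. Alternatives tried were scaling arrays to 1 median, quantile normalization, signals without a floor or with it at the 60th percentile, testing every gene or those with a high mean signal, the mean over probe sets, dropping the _x_at and _s_at probe sets, keeping the control probe sets, and a 2-fold threshold. The steps were tested on simulated data. Computation used matplotlib 3.10.9 (figures), pandas 2.3.3, numpy 2.4.6, scipy 1.17.1 and Python 3.11.15.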

Additional observations from a re-analysis of the deposited data

Results flagged for a closer look

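HK2 was past 1.5-fold in opposite directions with the hairpins: its log2 ratio to shLuc was -1.49 with shMMSET#2 and 1.13 with shMMSET#4. Under the mean over its probe sets the ratio with shMMSET#2 was -0.57, with a probe set under the floor on both arrays counted as unchanged. With 1 array per group the difference between the hairpins was not tested.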

How the results depend on the processing

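No paired analysis was possible because each group had 1 array, so no replicate could be left out either. Under scaling to the same median signal 4 members were lower and 5 higher with both hairpins, against 8 and 2, and the median log2 ratio of the tested members moved to -0.069 from -0.39 for shMMSET#2, and to 0.30 from -0.08 for shMMSET#4. Quantile normalization moved these medians to -0.26 and 0.035. Counting dim members as well (no filter) gave -0.23 with shMMSET#2, by construction, since EGLN2 and EGLN3 sit at the floor. The mean over all probe sets left 1 member higher with both and 1 lower with shMMSET#4 than with shMMSET#2. In that mean a probe set under the floor on both arrays of a ratio counts as unchanged. With the _x_at and _s_at probe sets dropped, 21 members could be tested, the median with shMMSET#4 was 0.056, 1 member was lower with shMMSET#4 than with shMMSET#2 and 7 were higher, against 2 and 12. At 2-fold, 3 members were lower with both, 1 was lower and 7 were higher with shMMSET#4 than with shMMSET#2. ADM, PDK1 and PFKFB4 were lower with both, and ENO2 higher with both, under all 10 settings that kept the 1.5-fold threshold. Most of these settings could not change the calls of such genes. Those of the floor, the filter and the control probe sets left every member call as reported. ADM and ENO2 have 1 probe set each, so the probe set settings could not move them either. NDRG1 has only an _s_at probe set, so it could not be tested with those dropped, and it was lower with both under the other settings. Of 634 ratios of single members under the alternatives, none that was called changed sign. Many of the 634 were nearly fixed in advance, as the tested members lay above the floor. The floor, filter and control probe set settings could thus hardly move them, and the total says little about stability. The SD of 1 array was estimated from the difference between the hairpin arrays. By more than this SD 17 of the ratios moved, mostly under the mean over probe sets. The cause of these changes was not tested except where stated. Dim signals near the floor limit EGLN2, EGLN3, ANGPTL4 and PPFIA4, and also VLDLR and CDH1 with shMMSET#2.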

Other observations

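Genes of the pentose phosphate pathway, which branches from glycolysis to make pentoses and reducing power, included 3 that were higher with both hairpins. Of 9 tested, 3 passed 1.5-fold upward with both (8.6% of all tested genes did), none did so downward and 6 did not pass with both, with median log2 ratios of 0.33 with shMMSET#2 and 0.47 with shMMSET#4. TALDO1, the transaldolase, gave 1841 with shLuc, 3457 with shMMSET#2 and 4858 with shMMSET#4, 1.88-fold and 2.64-fold higher. TKT, the transketolase, gave 3685, 6092 and 7008, 1.65-fold and 1.90-fold higher. PRPS1, which makes the activated pentose for nucleotides, was 1.71-fold and 1.58-fold higher.

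Of 17 tested genes of the tricarboxylic acid cycle, 1 was higher and 1 lower with both hairpins (8.6% and 11.9% of all tested genes), and 15 were neither. IDH2, the mitochondrial isocitrate dehydrogenase that makes reducing power, gave 579 with shLuc, 1279 with shMMSET#2 and 3406 with shMMSET#4, 2.21-fold and 5.88-fold higher. CS, the citrate synthase, gave 6775, 4009 and 3776, 1.69-fold and 1.79-fold lower.

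EPCAM and CDH1, which were on a list of epithelial markers, were present in these cells. EPCAM gave 8099, 4391 and 10651, and CDH1 gave 595 with shLuc and 340 with shMMSET#4 and was lower by 11.9-fold and 1.75-fold with the hairpins, so that both were lowest with shMMSET#2. KRT18 was also lowest with shMMSET#2 (327, 248 and 350), whereas KRT8 was lowest with shLuc (99.8, 118 and 144). Within the group, 10 of the 12 further hypoxia targets were lower, by any amount, with shMMSET#2 than with shMMSET#4, as were 6649 of all 13296 tested genes. Of the B cell markers, MS4A1 was near or under the floor. CD22 (131, 107 and 76.1) and PAX5 (61.5, 73.2 and 71.8) were dim but above the floor on every array, and were tested. The part of these epithelial and B cell markers in the results was not tested.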
